A study of Mus musculus with 9 samples.

Results

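The Ly6 family comprises small cell-surface proteins built on the Ly6/uPAR domain, a compact fold held by disulfide bonds, and most of them are tethered to the outer membrane by a glycosylphosphatidylinositol (GPI) lipid anchor. Many mouse members lie side by side on chromosome 15, where duplication has left several close copies, and a number of them serve as surface markers of blood, endothelial or progenitor cells. In the colon, Ly6a (Sca-1) is known as a marker of epithelium under repair. The 7 members described here, Ly6a, Ly6c1, Ly6c2, Ly6d, Ly6e, Ly6g and Ly6k, were found by symbol among the 17511 genes of the authors' deposited table, and 7 of 7 had a row. They were picked for the rise of Ly genes in that table, so their expression differences between the groups are a description and not a test.

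The study profiled mouse large intestinal cells, which were enriched for colon epithelium with EDTA, to follow gene expression, chromatin accessibility and binding of the intestinal homeobox factor Cdx2. RNA-seq and ATAC-seq, which maps open chromatin by transposase insertion, each had 2 DKO and 2 Wt libraries, and Cdx2 ChIP-seq had 1 Wt library. The strain label is Cdx1-/-Cdx2f/f vill (+) for DKO and Cdx1-/-Cdx2f/f vill (-) for Wt and for the ChIP library, so that all 9 libraries are Cdx1 null with floxed Cdx2, and the Wt group is not wild type for Cdx1. Tamoxifen was given for 6 days to the mice behind the RNA and ATAC libraries, while the ChIP library is tagged untreated. The labels give no age, do not spell out the vill tag and do not say whether replicates came from separate mice, so a p-value here reflects the spread among these libraries alone, which may be technical.

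The RNA libraries held 16403301 to 25494309 estimated reads. In the authors' deposited table Cdx2 differed by a log2 fold change (DKO over Wt) of -0.27 (SE 0.21, adjusted p = 0.301), which did not pass the test. Cdx1, null by the strain label of both groups, had a mean of 2595 normalized counts and a log2 difference of -1.06 (SE 0.23, adjusted p = 2.08e-05) in that authors' deposited table. The groups are therefore called by their labels only. Markers of intestinal epithelium were abundant, at means of 11757 normalized counts or more. At an adjusted p under 0.05 they were called higher in 2 and lower in 4 of 11 (median -0.45). Of all genes, 18.5% were called higher and 18.3% lower. The mucin Muc2 was at -4.95, the carbonic anhydrase Car1 at -2.71 and the keratin Krt20 at -0.92 in the authors' deposited table, and the surface protein Epcam was at -0.22 (adjusted p = 0.380). Markers of fibroblasts and muscle were called lower in 13 of 13 (median -5.14), beside 18.3% of all genes. Cnn1 was at -9.06, Tagln at -8.18 and Acta2 at -8.11 in the authors' deposited table. In bulk samples, fewer cells of a type and less RNA per cell cannot be told apart. Nothing used here pairs the transcript IDs of the single libraries with genes, so gene values are the authors' means over the libraries and their comparison of the groups, with no value per library.

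The kinship of the members shows in the DNA before their start sites. RefSeq promoter sequences (GRCm38.p6) matched 3 of the 7 members, Ly6c1, Ly6c2 and Ly6g, and also their relatives Ly6a2 and Ly6f; Ly6a, Ly6d, Ly6e and Ly6k had no entry. Upstream sequence is shown 5′ to 3′ for the 3 members, which differ in how their RNA moved, and for Ly6f, a copy whose RNA did not pass the test. Only bases outside the gene's own span are printed, at chr15:75048921-75049087 (minus strand) for Ly6c1, chr15:75112067-75112221 (minus) for Ly6c2, chr15:75155011-75155260 (plus) for Ly6g and chr15:75268171-75268371 (plus) for Ly6f. Capitals mark matches to CNATAAA, letters that CDX factors are known to bind.
Ly6c1: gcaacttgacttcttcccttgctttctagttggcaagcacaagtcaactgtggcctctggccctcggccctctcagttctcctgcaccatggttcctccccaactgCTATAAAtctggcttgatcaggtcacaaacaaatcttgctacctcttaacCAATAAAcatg
Ly6c2: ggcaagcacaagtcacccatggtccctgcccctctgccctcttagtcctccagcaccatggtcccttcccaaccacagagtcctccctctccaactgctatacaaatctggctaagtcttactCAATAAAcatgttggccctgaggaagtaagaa
Ly6g: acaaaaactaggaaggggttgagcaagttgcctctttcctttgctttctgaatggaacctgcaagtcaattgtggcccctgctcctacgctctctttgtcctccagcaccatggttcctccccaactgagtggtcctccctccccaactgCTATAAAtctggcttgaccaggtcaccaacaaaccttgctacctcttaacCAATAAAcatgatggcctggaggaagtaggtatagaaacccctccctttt
Ly6f: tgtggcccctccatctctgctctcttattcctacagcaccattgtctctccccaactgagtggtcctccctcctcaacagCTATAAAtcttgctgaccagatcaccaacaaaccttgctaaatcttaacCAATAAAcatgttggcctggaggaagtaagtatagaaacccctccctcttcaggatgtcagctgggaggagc

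Motifs were searched on both strands of the 250 bases upstream of 1 RefSeq start per gene. In Ly6c1, Ly6c2 and Ly6f that start lies inside the gene's own span, so the last 83, 95 and 49 bases of the window, which are not printed, fall within the gene. Motif distances are counted from that start, and motif and identity values use the whole window. Each of the 5 promoters held CAATAAA, which began 94 bases upstream of the start in Ly6c1, 127 in Ly6c2, 50 in Ly6g, 122 in Ly6a2 and 121 in Ly6f. CNATAAA occurred in 10.2% of 27025 RefSeq promoters of the same length. The 11 letters CAATAAAcatg were the longest run common to the 5 promoters, and 11 of the 27025 promoters held them. Ly6c1, Ly6g and Ly6f also held CTATAAA, which contains the TATA-box letters TATAAA, found in 13.0% of promoters. These promoters are copies of one another and are not independent observations. Over aligned bases, identity was 81.4% between Ly6c1 and Ly6c2 (210 aligned, 80 gap bases) and 82.1% between Ly6c2 and Ly6g (190 and 120). It was 85.8% between Ly6c1 and Ly6g (204 and 92) and reached 98.8% between Ly6c2 and Ly6a2 (245 and 10). Gap bases are left out of these percentages, so they are not identities over the whole window.

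Letters bound by interferon and inflammatory factors had no match in the 5 windows. The interferon-stimulated response element was searched as GAAA, any 2 bases and GAAA (in 3.04% of all promoters), the interferon-gamma activated site as TTCNNNGAA (7.18%), the AP-1 site as TGANTCA (6.87%) and the NF-kB site as GGGA, any 3 bases and TCC (3.82%). This says only that those letters are not in these windows. None of the 5 promoters overlapped an ATAC peak of any library or a Cdx2 peak, where 41.4% of all promoters overlapped an ATAC peak and 1.02% a Cdx2 peak.

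Ly6d had the largest difference of the 7 members. Ly6d (ENSMUSG00000034634, GRCm38 chr15:74762056-74763567) is known from keratinocytes and from lymphoid progenitors bound for the B lineage. The authors' deposited table listed it at a mean of 13929.6 normalized counts, with 8.71 as its log2 fold change (SE 0.26, adjusted p = 2.74e-238), which is a 419.6-fold higher level in DKO. Its p was the smallest of the 17511 genes, and it ranked 23 from the top by log2 fold change. Ly6d thus combined a very large difference with a mean count above that of nearly every other gene in the table, at percentile 99.0.

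Ly6a and Ly6c1 were also higher in DKO, with small errors. Ly6a (ENSMUSG00000075602, chr15:74994877-74998031), the Sca-1 antigen of blood stem cells and of regenerating epithelium, stood in the authors' deposited table at a mean of 15690.2 normalized counts and a log2 difference of 2.74 (SE 0.30, adjusted p = 9.05e-19), which is 6.66-fold. Ly6c1 (ENSMUSG00000079018, chr15:75044018-75048920), an antigen of endothelium and of some T cells, stood in the authors' deposited table at a mean of 4050.0 and a log2 difference of 5.20 (SE 0.22, adjusted p = 8.26e-126), which is 36.9-fold and ranked 12 by p.

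Ly6g and Ly6k were higher in DKO with wider errors. Ly6g (ENSMUSG00000022582, chr15:75155261-75159128), the antigen by which mouse neutrophils are sorted, stood in the authors' deposited table at a mean of 2958 normalized counts and a log2 difference of 1.89 (SE 0.42, adjusted p = 1.11e-05). Ly6k (ENSMUSG00000044678, chr15:74796874-74799968), a testis protein that sperm need to pass into the oviduct, stood there at a mean of only 40.6 and a log2 difference of 2.63 (SE 1.18, adjusted p = 0.00704), by the authors' deposited table. The size of the Ly6k difference is therefore loosely set.

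Ly6e and Ly6c2 did not pass the threshold of an adjusted p under 0.05. Ly6e (ENSMUSG00000022587, chr15:74955025-74959904), an interferon-inducible member made by many cell types, stood in the authors' deposited table at a mean of 11066 normalized counts and a log2 difference of 0.49 (SE 0.27, adjusted p = 0.128). Ly6c2 (ENSMUSG00000022584, chr15:75108161-75112066), the antigen of inflammatory monocytes, stood in the authors' deposited table at a mean of 29.9 and a log2 difference of 0.57 (SE 0.76, adjusted p = 0.417). Ly6e was measured at a high count with a narrow error, whereas Ly6c2 was scarce, at percentile 25.7 of the mean counts.

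In all, 5 of the 7 members were called higher and 0 lower, with a median log2 fold change of 2.63. Of all genes in the authors' deposited table, 36.8% were called, 18.5% as higher and 18.3% as lower, and the median was -0.02. Among genes with a mean of at least 50, 4 members were called higher, where 25.5% of such genes were. Nothing is read from the members' count, since they were picked from this contrast. The members Ly6a, Ly6c1, Ly6c2 and Ly6g and their relatives Ly6i, Ly6a2, Ly6g2 and Ly6f resemble one another, so reads could be split between them and the value of each is uncertain. Whether reads passed between Ly6c1 and Ly6c2 was not tested.

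**Figure D1:**
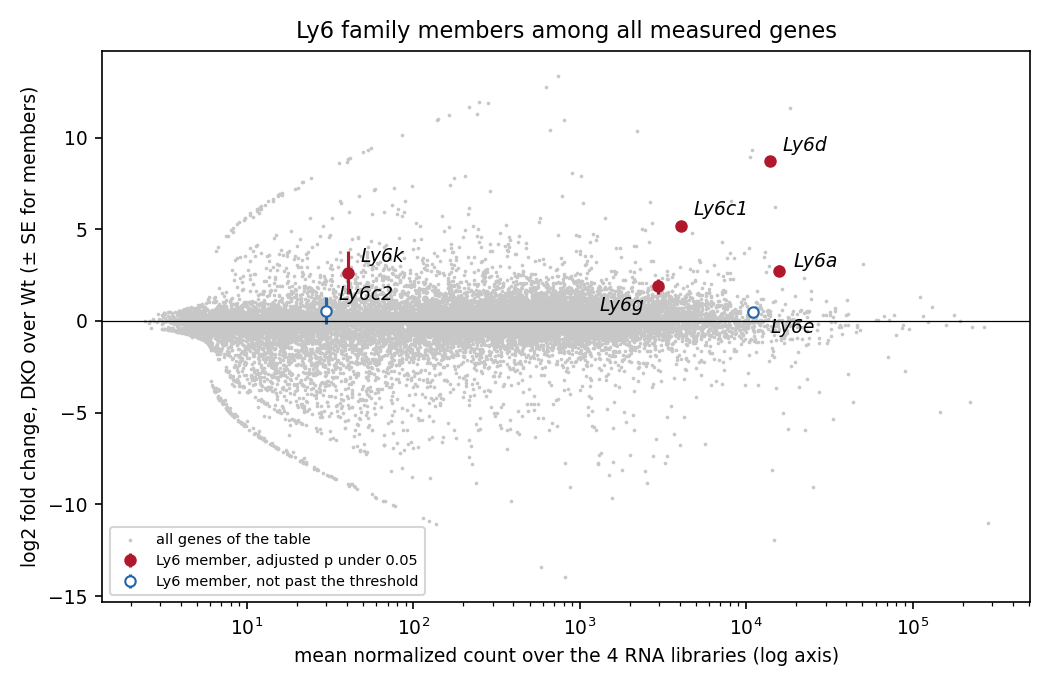
Mean normalized count over the RNA libraries (log axis) against log2 fold change, DKO over Wt, in the authors' deposited table, with all 17511 genes in grey and the 7 Ly6 members with SE bars (filled red, adjusted p under 0.05; open blue, not past it). Ly6d at 8.71 and Ly6c1 at 5.20 stand clear of most genes of similar count, while Ly6e (0.49) and Ly6c2 (0.57) lie within the grey cloud.

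The other Ly6/uPAR genes of the cluster had log2 fold changes above 0, though not all of them were called. Within 1 Mb the authors' deposited table held 10 of them, called 6 higher and 0 lower, beside 18.5% and 18.3% of all genes. It gave 10 of 10 a log2 fold change above 0, with a median of 1.78, beside 8603 of all 17511 genes. The part was chosen for the rise of Ly genes in this contrast, so these relatives are not independent of that choice. One of the 10, Ly6g6g, was not on the list of cluster genes and was counted for its position. Gml and Gml2, named for likeness to a GPI-anchored protein, stood in the authors' deposited table at log2 differences of 6.17 (SE 2.38, adjusted p = 0.000953) and 6.13 (SE 1.07, adjusted p = 2.53e-08). Their spans overlap, so their reads may not be told apart.

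Ly6m, between Gml2 and Ly6e, was abundant, with a mean of 13125 normalized counts and a log2 fold change of 2.66 (SE 0.39) in the authors' deposited table. Ly6g2, next to Ly6g, was at 2.12 (SE 0.39), and Lynx1, which binds nicotinic acetylcholine receptors, at 1.45 (SE 0.36) in the authors' deposited table. Ly6i was called higher by the authors' deposited table at a mean of only 8.10, with a log2 difference of 2.80 and an SE of 2.72, close to the difference itself. In the authors' deposited table Psca (0.64, adjusted p = 0.112), Ly6g6g (0.84, adjusted p = 0.115), Ly6a2 (0.90, adjusted p = 0.0933) and Ly6f (0.04, adjusted p = 0.958) did not pass. Gpihbp1, Ly6h, Ly6l, Lypd2, Slurp1 and Slurp2 had no row.

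Most genes of other families around the members were not called. The authors' deposited table held 29 of them within 1 Mb, with a median log2 fold change of -0.17. Of the 29, 3 were called higher and 4 lower, beside 18.5% and 18.3% of all genes. The other 22 were not called, beside 11069 of all 17511 genes. The 5 that lie among the members or within 100 kb of them were called higher in 2 and lower in 0, with a median of 0.88, so the lower calls lie farther out. By the authors' deposited table the 3 higher ones, named after their values were seen, were the immediate early gene Arc (4.46, SE 0.65), Adgrb1 (1.61, SE 0.92) and the noncoding gene Gm28068 (2.87, SE 1.23). The span of Gm28068, chr15:74966931-75043885, covers Ly6i and Ly6a, so that part of its reads could come from them. The difference between Ly6 and other genes was not tested, since the members were picked from it.

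**Figure D2:**
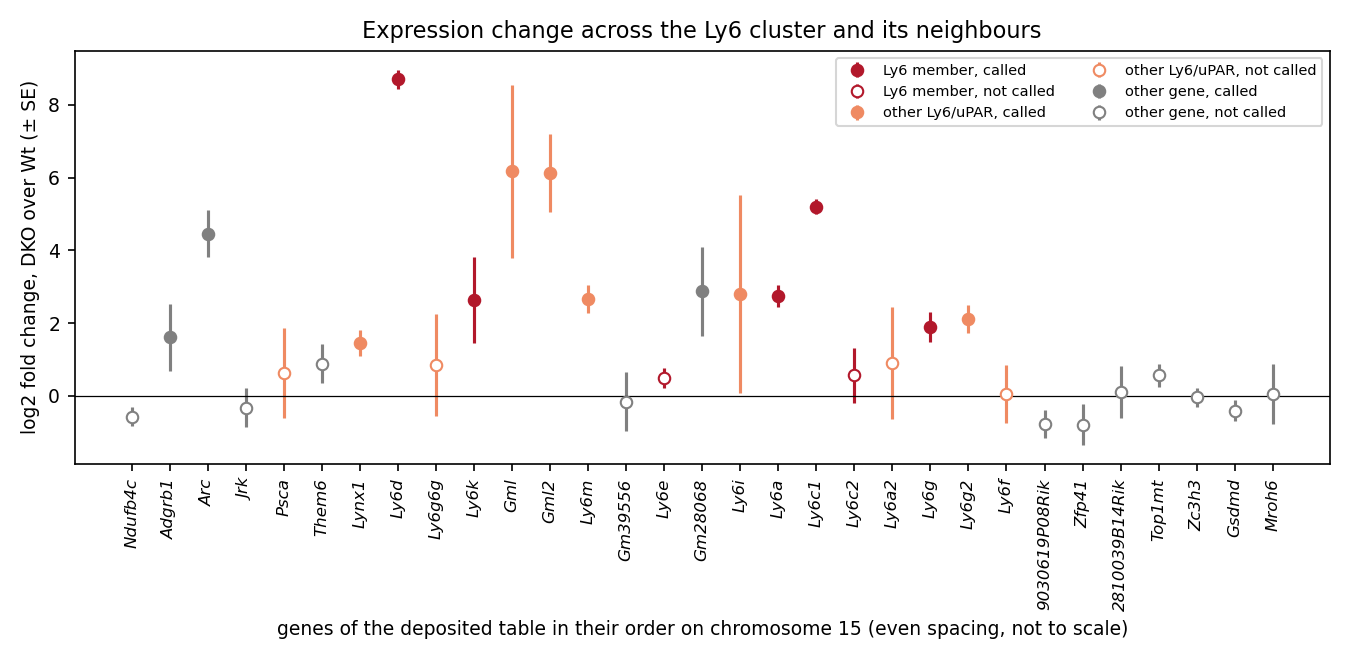
Log2 fold change, DKO over Wt, with SE bars in the authors' deposited table, for genes in their order on chromosome 15 at even spacing (red, Ly6 members; orange, other Ly6/uPAR genes; grey, other genes; filled where the adjusted p is under 0.05). Every Ly6/uPAR gene plotted lies above 0, from 0.04 in Ly6f to 8.71 in Ly6d, with called and uncalled genes interleaved along the row.

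Ly6/uPAR genes on other chromosomes were called in both directions. The authors' deposited table held 13 of them, with a median of 0.01. Of these, 3 were called higher and 2 lower, beside 18.5% and 18.3% of all genes. The other 8 were not called, beside 11069 of all 17511 genes. Lypd8l (3.29, SE 0.44) and Lypd6b (3.05, SE 0.35) were higher and the complement inhibitor Cd59b (-2.75, SE 0.81) was lower in the authors' deposited table. Genes that make and attach the GPI anchor, on which the members depend to reach the surface, were not called in 20 of 29, a share near that of all genes (11069 of 17511). Beside 18.5% and 18.3% of all genes, 4 of the 29 were called higher and 5 lower, with a median of -0.10. Among these, Dpm1 was at 1.54 (SE 0.26), Pigh at -1.82 (SE 0.35) and Pigw at -1.13 (SE 0.51) in the authors' deposited table.

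Genes of the interferon pathway, which can induce Ly6a, Ly6c and Ly6e, were called in both directions. Interferon targets were called higher in 10 and lower in 7 of 36 (median 0.18), with 19 not called. The chemokine Cxcl9 was at 4.64 (SE 0.61), the GTPase Tgtp1 at 4.32 (SE 0.44) and Ifi27l2a at -3.36 (SE 0.61) in the authors' deposited table. Interferon receptors, kinases and factors were called higher in 4 and lower in 3 of 18 (median -0.09), with 11 not called. The inhibitor Socs3 was at 2.08 (SE 1.18), the kinase Jak2 at 1.41 (SE 0.25) and the factor Irf7 at -2.20 (SE 0.29) in the authors' deposited table. Among all genes 18.5% were called higher and 18.3% lower, and nothing is read from the interferon counts. Genes of fetal-like and regenerating epithelium, the setting in which Ly6a is used as a marker, were called higher in 15 and lower in 2 of 23 (median 1.45). Anxa1 was at 3.74 (SE 0.27), Tnfrsf12a at 2.60 (SE 0.24) and Areg at 2.41 (SE 0.32) in the authors' deposited table.

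Cell types known to carry Ly6 antigens were followed by their markers, beside 18.5% of all genes called higher and 18.3% called lower. Neutrophil markers, beside Ly6g, were called higher in 11 and lower in 0 of 12 with a row, with a median of 4.37. S100a9 was at 12.79 (SE 3.86), S100a8 at 10.99 (SE 2.13) and Ltf at 4.99 (SE 0.69) in the authors' deposited table. The receptors Csf3r and Cxcr2 were at 2.60 (SE 0.90) and 2.08 (SE 0.67), with means of 42.1 and 44.5 by the authors' deposited table. Of the 12 markers, 4 had a mean of at least 50, while Camp, Elane, Mpo and Padi4 had no row. The part of neutrophils in the value of Ly6g was not tested. Monocyte and macrophage markers, beside Ly6c2, were called higher in 3 and lower in 4 of 15 (median 0.11), with C1qa at -2.40, Cd14 at 2.16 and Lyz2 at -2.13 in the authors' deposited table.

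Endothelial markers, beside Ly6c1 and Ly6a, were called lower in 14 and higher in 0 of 15 (median -3.71), with Flt1 at -7.13 (SE 1.40), Kdr at -6.20 (SE 0.96) and Plvap at -5.88 (SE 0.40) in the authors' deposited table, a direction opposite to that of Ly6c1 and Ly6a. Markers of T cells and intraepithelial lymphocytes were called higher in 3 and lower in 0 of 18 (median 0.23), with Gzma at 1.44 and Ptprc at 1.01 in the authors' deposited table. Markers of B and plasma cells, beside Ly6d, were called lower in 6 and higher in 0 of 10 (median -1.68), with Jchain at -3.61, Igha at -3.46 and Igkc at -3.42 in the authors' deposited table. Of 13 squamous markers, also beside Ly6d, 6 had a row, and 2 were called higher and 2 lower (median 0.01). Krt4, which alone had a mean of at least 50, was at 7.12 (SE 1.53) with a mean of 57.8 in the authors' deposited table. Below that mean, the authors' deposited table listed Ivl at 5.60 (SE 3.10), Krt17 at -3.07 (SE 1.48) and Krt13 at -1.90 (SE 1.55). Krt5 and Trp63 had no row. Summed levels per group cannot be given for these lists without gene values per library, and their part in the members' values was not tested.

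**Figure D3:**
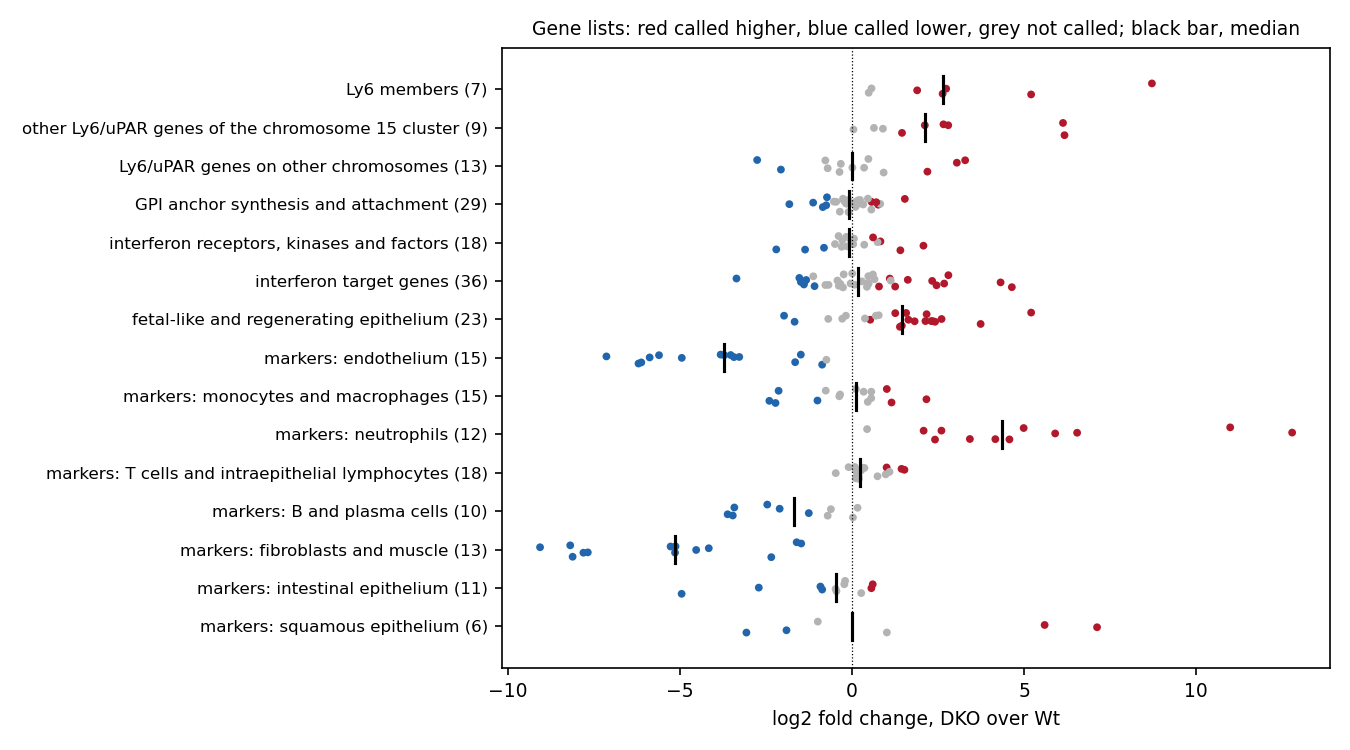
Log2 fold change, DKO over Wt, in the authors' deposited table for each gene of the 15 lists (red, called higher; blue, called lower; grey, not called; black bar, median; genes with a row in brackets). The Ly6 members (median 2.63), their cluster relatives (2.12) and neutrophil markers (4.37) lie to the right, and endothelial (-3.71) and fibroblast and muscle markers (-5.14) to the left.

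Open chromatin around the members was described next, from ATAC peaks called by the authors in each library. The cluster was taken from Ly6d to Ly6g with 100 kb on each side, chr15:74662056-75259128. It held 18 peaks in Wt replicate 1, 27 in Wt replicate 2, 11 in DKO replicate 1 and 3 in DKO replicate 2. Both DKO lists were also shorter over the whole genome, with 40101 and 23961 peaks against 48163 and 53943 in Wt, and absence from a list is not absence of signal. Per 100000 listed peaks, the cluster held 37.4 and 50.1 in Wt and 27.4 and 12.5 in DKO.

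Peaks that overlapped by at least 1 bp formed 44 regions. In the cluster 14 of 44 regions were lost, meaning that both Wt lists and neither DKO list held them, against 23.8% of regions on the assembled chromosomes. Gained regions, held by both DKO lists and neither Wt list, numbered 0 against 4.98%, and regions in all 4 lists numbered 0 against 3.54%. Each of the 14 regions found in both Wt lists was lost, where 75.2% of such regions were lost over the assembled chromosomes. These shares are not matched for peak strength. Median fold enrichments of the cluster's peaks were 4.31 and 4.13 in Wt replicates 1 and 2, against 4.95 and 4.88 over all peaks of those libraries. No region of the cluster was in both DKO lists, and 1 region, chr15:75254216-75254393, was in a list of each group. With only peaks of a −log10 q of at least 5, 7 of 7 such regions were lost, against 87.0%. Without the flanks, 5 of 24 regions were lost, which is 20.8% and below the 23.8% of the assembled chromosomes, so the share lost lay above or below that background with the choice of edges. Without Wt replicate 1, 26 of 40 regions were lost (65.0% against 45.2%), and 26 of the 27 regions in the remaining Wt list (against 81.3%). Gained regions numbered 10 of 41 without DKO replicate 2 (24.4% against 33.6%) and 3 of 34 without DKO replicate 1 (8.82% against 17.7%). The number of regions is small, and with 2 libraries a group these shares carry no test.

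The 3 members with a peak in both Wt lists within 10 kb of their span were Ly6d, Ly6k and Ly6e. Near Ly6d, the region chr15:74760754-74760983, 1073 bp from the span, had a fold enrichment over local background of 4.17 in Wt replicate 1 and 3.66 in Wt replicate 2 and no peak in either DKO library. A second region lies 110 bp from the other end of Ly6d (chr15:74763677-74763814) and was listed at 3.46 in Wt replicate 2 only. Ly6d, the member with the largest RNA difference, had 3 peaks in each Wt list and 0 in each DKO list within 10 kb. A DKO replicate 1 peak, at an enrichment of 2.92, lay just beyond that window, 10013 bp away (chr15:74751844-74752043).

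Near Ly6k, the region chr15:74788780-74788981, 7893 bp from the span, had enrichments of 5.05 and 5.69 in Wt replicates 1 and 2 and no DKO peak. The span of Ly6k itself met a peak in DKO replicate 1 only (chr15:74799846-74800062, 3.36). Inside Ly6e, the region chr15:74955388-74955785 was at 4.53 and 4.21 in Wt, and chr15:74968320-74968474, 8416 bp away, at 4.20 and 4.07, again with no DKO peak. Ly6e, whose RNA difference did not pass, and Ly6d, whose difference was the largest, both had Wt peaks and no DKO peak within 10 kb. A link between these peaks and the RNA was not tested.

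Ly6a, Ly6c1, Ly6c2 and Ly6g had no peak in both lists of either group within 10 kb. Ly6a had 1 peak in Wt replicate 2 (chr15:74988602-74988856, 5.32) and 2 in DKO replicate 1 (3.86 and 3.70), each from a single library. Ly6g had 1 peak inside its span in Wt replicate 2 only (chr15:75156776-75156876, 3.40). Ly6c1 and Ly6c2 had none in any library. A stretch of 167035 bp, chr15:74989741-75156775, held no ATAC or Cdx2 peak and contains Ly6a, Ly6c1, Ly6c2 and Ly6a2. It was the longest such stretch of the cluster and was picked for its length. Of 109077 stretches between peaks on the assembled chromosomes (median 9115 bp), 1.75% were at least as long. That share counts stretches and not bases, so it does not say how often a gene lies in one. Whether reads from these related genes could be placed to 1 position was not tested, and how multiply mapped reads were handled is not given in the sources used here.

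Over the 7 members, each Wt list held some peak within 10 kb for 3 (86.1% of the 16370 genes with a span). Each DKO list held one for 0 (50.7%). These counts, and the shares over all genes, do not require the peaks of the lists to overlap. No member called higher in RNA had peaks from both DKO libraries in this window. The most enriched lost regions of the cluster lay farther from the members, at chr15:74892009-74892486 (6.79 and 8.27 in Wt), chr15:75175639-75175762 (8.07 and 6.47, 16511 bp from Ly6g) and chr15:75216184-75216433 (6.52 and 8.03, at Ly6g2).

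**Figure D4:**
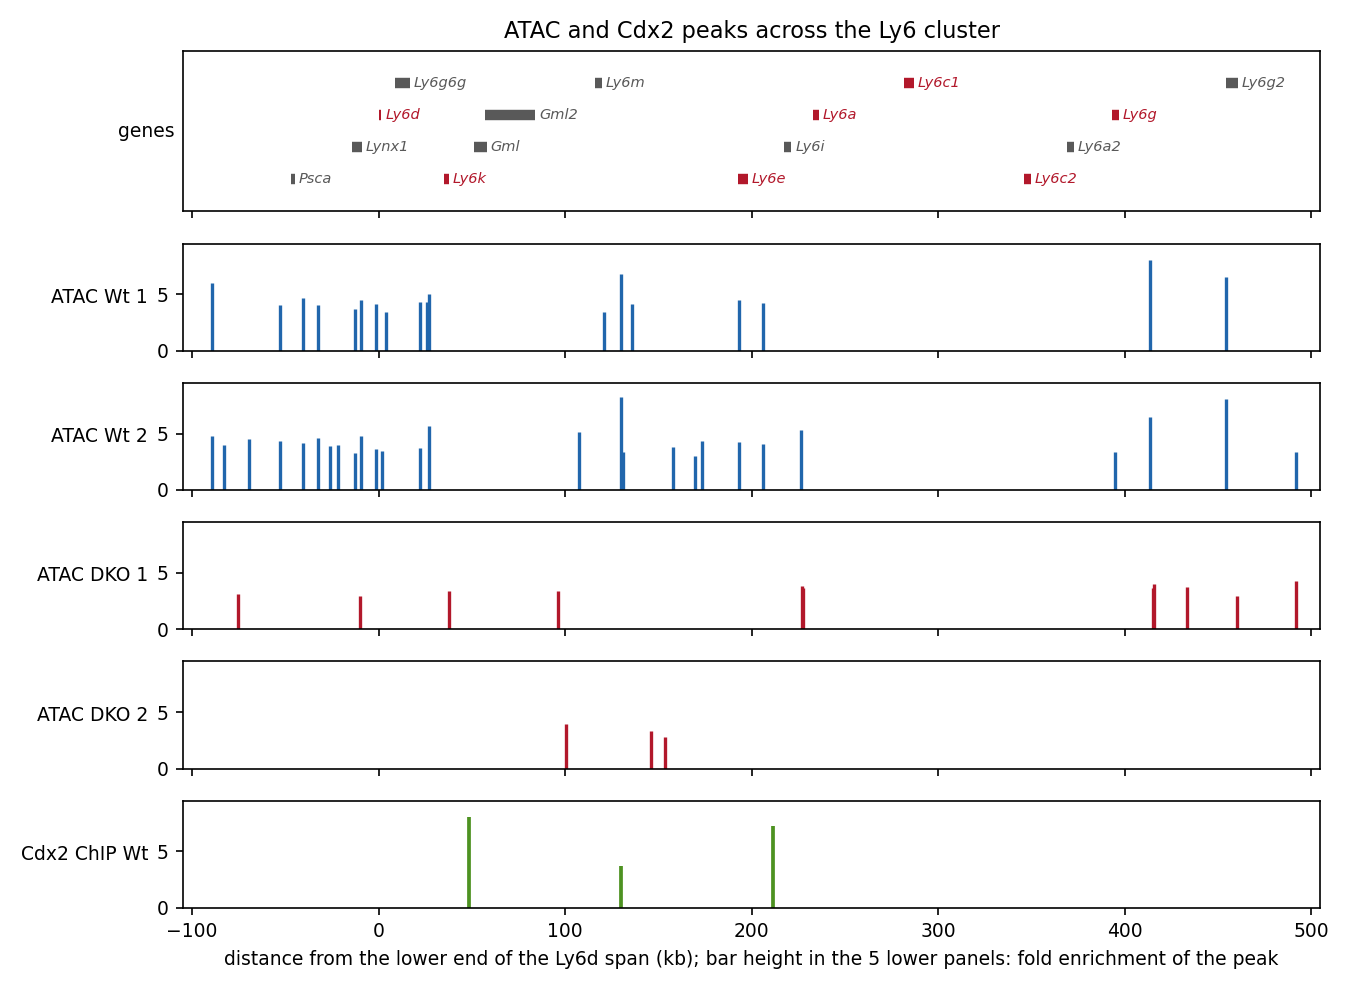
Genes (top; members in red) and peaks of each library along the Ly6 cluster, by distance in kb from the lower end of Ly6d, with the height of each bar giving the authors' fold enrichment of the peak. The Wt panels hold 18 and 27 peaks and the DKO panels 11 and 3, the Cdx2 panel holds 3, and the stretch with Ly6a, Ly6c1 and Ly6c2 is empty in every panel.

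The cluster held 3 of the 5100 Cdx2 peaks on the assembled chromosomes, from 1 library without a replicate. Per 100000 listed peaks that is 58.8. The peak chr15:74810468-74810789 had a fold enrichment of 8.03, above 87.3% of Cdx2 peaks, and lay 10500 bp from Ly6k and 2645 bp from Gml. The peak chr15:74973414-74973713 was at 7.30, above 81.2% of peaks, 13510 bp from Ly6e and inside Gm28068. Neither met an ATAC peak in any library. The weakest, chr15:74892076-74892273, was at 3.72, lay 62752 bp from Ly6e and fell in the lost region that was open at 6.79 and 8.27 in Wt.

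None of the 7 members had a Cdx2 peak within 10 kb, where 18.1% of genes did. Within 50 kb, 4 of the 7 had one (57.1% against 35.6% of genes), so the comparison turned with the window. The nearest Cdx2 peak was 10.5 kb from Ly6k, 13.5 kb from Ly6e, 21.2 kb from Ly6a, 46.9 kb from Ly6d, 70.3 kb from Ly6c1, 134.4 kb from Ly6c2 and 181.5 kb from Ly6g. The median of 46.9 kb stands beside 99.3 kb over all genes with a span. By distance, Ly6e, whose RNA difference did not pass, was the second nearest, and Ly6d and Ly6c1, with the largest differences, were the fourth and the fifth. All these distances run to the peaks at 8.03 and 7.30, so they largely follow the position of the genes. A link between distance and RNA was not tested.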

How the data were processed

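The members and the gene lists were chosen with earlier results of these data known. Salmon 1.3.0, DESeq2, MACS2, fastp, Bowtie2 and BWA appear in the submitters' processing notes with no role or setting, as do mm10 and GRCm38. The ATAC read shift, the ChIP control and the handling of multiply mapped reads were not stated in the labels. The deposited transcript files held estimated counts and TPM from Salmon, per the file headers, and the counts served here for depth only. The authors' deposited gene table gave a mean normalized count, a signal scaled between libraries, with log2 fold changes, p-values and adjusted p-values, per the file headers. Fold over SE returned the deposited p in 1751 of 17511 genes (tolerance 0.01 in log10), so the folds appear shrunken. Benjamini-Hochberg adjustment of the deposited p gave back the deposited adjusted p. The deposited peak files gave, per library, a fold enrichment ratio, a −log10 p and −log10 q and a score, as written by the authors' peak caller.

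A gene-level test on counts had been planned and was left out for want of a table that pairs transcript IDs with genes. Genes were placed with RefSeq spans of GRCm38.p6 (16370 of 17511, 93.5%). Peaks were joined with pandas 2.3.3 and numpy 2.4.6 under Python 3.11.15, promoters aligned with Biopython 1.88, and figures drawn with matplotlib 3.10.9. The scripts were tested on simulated data. Named genes were the 7 members, their cluster relatives, Cdx1, Cdx2 and, per other list, up to 3 genes with the largest log2 fold change among those called at a mean of at least 50. Epcam, Csf3r, Cxcr2, Ivl, Krt17 and Krt13, marker genes outside that rule, and the neighbours Arc, Adgrb1 and Gm28068 were chosen after their values were seen. Other thresholds, overlaps, windows, cluster edges and left-out ATAC libraries were tried.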

Additional observations from a re-analysis of the deposited data

How the results depend on the processing

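The number of members called higher was 5 with the adjusted p held under 0.01 (13.5% of all genes), 5 with an at least 2-fold change (11.0%) and 4 among genes with a mean of at least 50 (25.5%), where Ly6k and Ly6c2 drop out. Limiting peaks to a −log10 q of at least 5 left 10 cluster regions, 7 of them lost, and each of the 7 regions in both Wt lists was lost (87.0% over the assembled chromosomes); without the flanks there were 24 regions and 5 lost (20.8% against 23.8%). Leaving out each ATAC library in turn gave 32 to 41 regions, 14 to 26 lost and 0 to 10 gained. The 26 came without Wt replicate 1 (65.0% against 45.2%), and the gained regions numbered 10 without DKO replicate 2 (24.4% against 33.6%) and 3 without DKO replicate 1 (8.82% against 17.7%), since 1 list then stood for its group. The counts of 0 gained regions and 0 regions in both DKO lists thus rest on peaks that the DKO libraries did not share. With windows of 50 kb, 4 members had a Cdx2 peak (57.1% against 35.6% of genes). Each Wt list held some peak for 5 members (93.7% of genes), and each DKO list for 1 (83.4%). These window counts do not require the peaks of the lists to overlap, and no region of the cluster was in both DKO lists. No paired analysis was possible because no gene counts per library could be had and peaks were compared without a test. For the same lack, leaving out RNA libraries, a replicate block and another tool or filter were not run.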
